A study of Mus musculus with 13 samples.

Results

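The genes described here are 34 mouse genes of cholesterol and fatty acid synthesis, chosen by name. They comprise 6 enzymes of the mevalonate pathway, 10 enzymes of the steps from squalene to cholesterol, 6 genes that sense, regulate or carry sterol, 3 that supply acetyl-CoA and NADPH, 3 of fatty acid synthesis proper, and 6 desaturases and elongases. All 34 were found among the 23418 genes of the count table, and all 34 were among the 15412 genes tested. They were read in 13 bulk RNA sequencing libraries: 4 of FAPs of muscle (replicates 2 to 5), 5 of FAPs of lung (replicates 1 to 5) and 4 of MEFs (replicates 1 to 4). FAP stands for fibro/adipogenic progenitor, a mesenchymal cell type of many tissues, and MEF for mouse embryonic fibroblast, as these abbreviations are commonly used. The study looked for transcripts of muscle FAPs that act on satellite cells. The labels name cell type and, for FAPs, the tissue. Genotype, strain, age, treatment, the way the cells were sorted, the culture of the MEFs and whether the MEFs are 1 isolate or several are unknown from the sources used here.

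Cholesterol is built from acetyl-CoA through mevalonate and isoprenoid units to squalene, which is cyclised to lanosterol and then demethylated, reduced and isomerised. Fatty acids are built from the same acetyl-CoA by carboxylation to malonyl-CoA and repeated condensation, and are then lengthened and desaturated. Both routes are under the SREBP transcription factors, which are made as membrane proteins of the endoplasmic reticulum. When membrane sterol is low, SCAP carries SREBP to the Golgi, where it is cut and released to the nucleus, and when sterol is high, INSIG proteins hold SCAP and SREBP back. SREBP-2, from Srebf2, acts mostly on sterol genes, and SREBP-1, from Srebf1, mostly on fatty acid genes.

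Levels are in CPM, each gene's count over the library's total after scaling between libraries by TMM. Group values are mean ± SD with n = 4, 5 and 4 for muscle FAPs, lung FAPs and MEFs, and values by library are listed in the order of the replicate numbers. Total counts were 41327292 to 44699463 for muscle, 28636183 to 35464622 for lung and 33756915 to 41466585 for MEF libraries. The labels do not say that replicates are separate animals or cultures, so the p-values speak only of the spread among these libraries, and that spread may be technical. The FAP markers Pdgfra, Ly6a, Cd34 and Dcn were 4 of 4 higher in muscle FAPs and 4 of 4 higher in lung FAPs than in MEFs. The lung and MEF libraries held markers of other cell types. Macrophage markers summed to 125 to 471 CPM in MEFs and 5.21 to 7.84 in muscle FAPs. In lung FAPs they summed to 25.8 to 644 CPM, the most in lung FAP 3. Their part in the differences against MEFs was not tested. Mesothelial markers (Msln, Upk3b, Wt1 and Lrrn4) were 4 of 4 higher in lung FAPs than in either other group, and summed to 317 to 777.3 CPM in lung FAPs, 0.662 to 24.7 in muscle FAPs and 24.5 to 33.0 in MEFs, and their part in the differences of lung FAPs was not tested. Without Abca3, which all groups express, alveolar type 2 markers summed to 3752 CPM in the library lung FAP 3 and 3.16 to 6.73 in the other lung FAPs, and endothelial markers to 573 CPM in lung FAP 2 and 173 in lung FAP 4. In bulk samples, fewer cells of a type and less RNA per cell cannot be told apart.

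RefSeq promoter windows, from 250 bases before to 50 after a gene start (GRCm38.p6), were found for 27 of the 34 genes, 13 of them mevalonate or sterol enzymes. Windows were searched on both strands for 4 motifs of factors known to act at these promoters. The SREBP element TCACNCCAC was in the window of 1 of the 27 genes, Hmgcs1 (3.7%; 1.45% of tested genes and 1.24% of all 32851 windows). The CCAAT box, bound by NF-Y, a partner of SREBP, was in at least 1 window of 23 of the 27 genes (85.2%), 13 of 13 mevalonate and sterol enzymes among them. The same held for 42.1% of the tested genes that have windows, and for 37.4% of all windows. The GC box GGGCGG was in 21 of 27 genes (77.8%; 66.0% of tested genes and 35.7% of all windows) and the E-box CACGTG in 6 (22.2%; 11.1% of tested genes and 7.15% of all windows). Matches of different motifs were counted separately, also where they overlapped. A match is a match of letters and not a measured site.

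The 250 bases before the start are shown, 5′ to 3′ along the gene, for Hmgcs1 at chr13:119690101-119690350 (+ strand), Lss at chr10:76531355-76531604 (+), Cyp51 at chr5:4104698-4104947 (−), Idi1 at chr13:8885356-8885605 (+), Mvd at chr8:122443423-122443672 (−) and Ebp at chrX:8193513-8193762 (−). Capitals mark the SREBP element, in Hmgcs1 as TCACCCCAC, and every CCAAT box, read as CCAAT or as its complement ATTGG. Hmgcs1 is the gene with the SREBP element. Lss, Cyp51, Idi1 and Mvd were added after their values were seen, as the enzymes of 1 window with the largest differences between muscle FAPs and MEFs, and Ebp as the sterol enzyme with no called difference.
Hmgcs1: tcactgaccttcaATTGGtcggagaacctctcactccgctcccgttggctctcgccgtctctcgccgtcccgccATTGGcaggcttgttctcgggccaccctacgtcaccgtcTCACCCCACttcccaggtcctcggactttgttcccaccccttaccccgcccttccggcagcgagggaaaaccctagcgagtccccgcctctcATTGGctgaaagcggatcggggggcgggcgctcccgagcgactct
Lss: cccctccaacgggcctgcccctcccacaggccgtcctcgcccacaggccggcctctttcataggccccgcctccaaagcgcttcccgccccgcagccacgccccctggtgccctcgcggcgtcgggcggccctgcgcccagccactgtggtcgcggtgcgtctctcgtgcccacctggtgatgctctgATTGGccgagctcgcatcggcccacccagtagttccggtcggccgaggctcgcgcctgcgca
Cyp51: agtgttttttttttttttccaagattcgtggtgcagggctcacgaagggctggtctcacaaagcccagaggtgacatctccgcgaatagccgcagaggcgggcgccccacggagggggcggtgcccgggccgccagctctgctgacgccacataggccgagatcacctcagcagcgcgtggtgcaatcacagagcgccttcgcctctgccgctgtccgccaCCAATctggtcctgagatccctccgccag
Idi1: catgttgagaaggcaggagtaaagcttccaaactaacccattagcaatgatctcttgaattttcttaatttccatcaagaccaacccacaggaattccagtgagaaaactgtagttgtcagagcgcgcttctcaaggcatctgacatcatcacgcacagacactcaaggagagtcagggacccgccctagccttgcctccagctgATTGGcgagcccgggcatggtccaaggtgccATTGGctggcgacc
Mvd: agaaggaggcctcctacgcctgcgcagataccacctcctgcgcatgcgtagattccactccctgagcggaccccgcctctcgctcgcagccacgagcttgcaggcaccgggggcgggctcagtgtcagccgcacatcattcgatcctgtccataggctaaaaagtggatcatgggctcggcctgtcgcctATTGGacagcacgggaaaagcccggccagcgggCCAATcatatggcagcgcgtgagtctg
Ebp: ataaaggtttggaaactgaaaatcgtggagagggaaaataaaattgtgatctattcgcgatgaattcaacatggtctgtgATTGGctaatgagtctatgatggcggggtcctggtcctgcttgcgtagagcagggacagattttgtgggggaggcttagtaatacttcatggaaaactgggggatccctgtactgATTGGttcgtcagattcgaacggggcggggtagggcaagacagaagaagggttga
Hmgcs1 held 3 CCAAT boxes in these bases, Idi1, Mvd and Ebp 2 each, and Lss and Cyp51 1 each.

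Both kinds of FAP held far less RNA of these genes than MEFs did. The 34 genes took 0.138 to 0.150% of all counts in the muscle libraries, 0.136 to 0.189% in those of lung and 0.908 to 1.75% in those of MEFs. Of the 34, 29 were lower in muscle FAPs than in MEFs, 2 were higher and 3 were not called (edgeR adjusted p under 0.05), where 37.3% of all tested genes were lower and 36.1% higher. In lung FAPs 30 were lower than in MEFs, 2 were higher and 2 were not called, against 36.6% lower and 37.8% higher over all tested genes. The median log2 fold change of the 34 was −2.76 for muscle FAPs and −2.79 for lung FAPs, with −0.041 and 0.019 over all tested genes. These comparisons share the MEF libraries, so their likeness is not independent evidence. Insig2 and Acacb were the higher genes in both comparisons. Ebp and Elovl5 were called in neither, and Srebf1 was not called for muscle FAPs. MEFs had the highest group mean for 31 of 34 genes, and the lowest group was lung FAPs for 17, muscle FAPs for 15 and MEFs for 2.

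**Figure D1:**
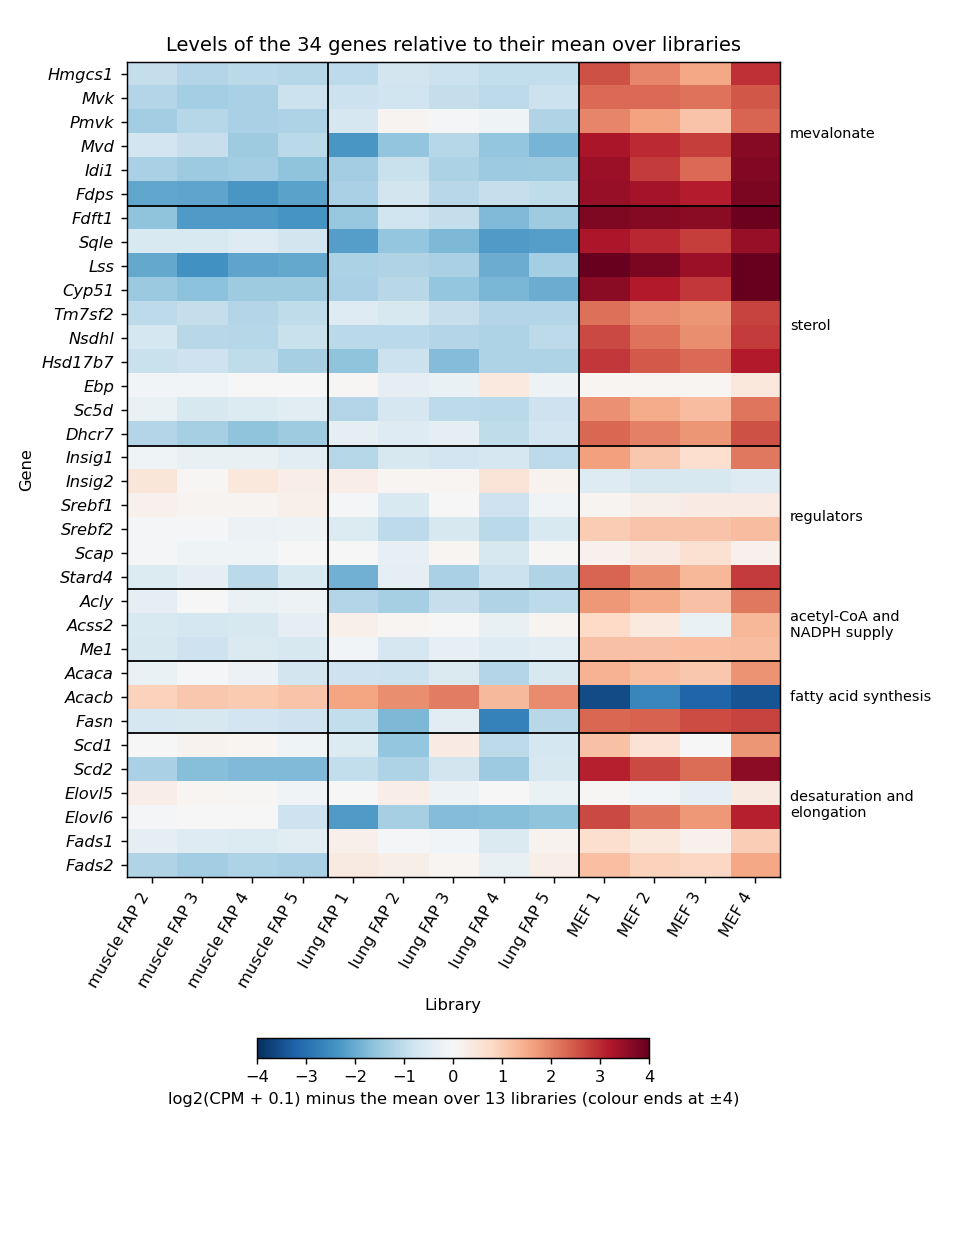
Heat map of log2(CPM + 0.1) of the 34 genes (rows, by role) in the 13 libraries (columns), as the difference from each gene's mean over all libraries, with colours ending at ±4. The MEF columns are high for nearly all rows, 31 of 34 by group mean, while Acacb and Insig2 run the other way, Ebp and Elovl5 differ little, and Srebf1 is lower in the lung columns.

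Muscle FAPs and lung FAPs differed less, and in both directions. Of the 34 genes 8 were higher in muscle FAPs (23.2% of all tested genes were), 9 were lower (25% of all) and 17 were not called, which is 23.5% and 26.5% of the 34 and close to the shares over all genes. The median log2 fold change was 0.034, with −0.037 over all tested genes. The libraries of both groups did not overlap for 13 of 34. How often that held over all tested genes was not counted, so this count is not particular to these genes. The higher genes were Mvd, Sqle, Sc5d, Srebf1, Srebf2, Acly, Acaca and Elovl6, and the lower were Pmvk, Fdps, Fdft1, Lss, Dhcr7, Me1, Acacb, Scd2 and Fads2. Sterol enzymes therefore stand in both lists. The split depends on scaling: with library size as the only scaling the median of all genes moved by −0.41, and 3 of the 34 were higher and 17 lower, with Mvd, Sc5d, Srebf1, Srebf2 and Acaca among those no longer called higher. That scaling called 59.6% of all tested genes in either direction, with 48.2% in the main fit. Without muscle FAP 2, 5 genes were higher and 8 lower, and 43.1% of all tested genes were called. Acly, Sqle, Elovl6, Fdps, Fdft1, Dhcr7, Acacb and Fads2 kept their call and direction in 24 of 25 alternatives, all but the test against a 2-fold change, which only Sqle and Fads2 passed.

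**Figure D2:**
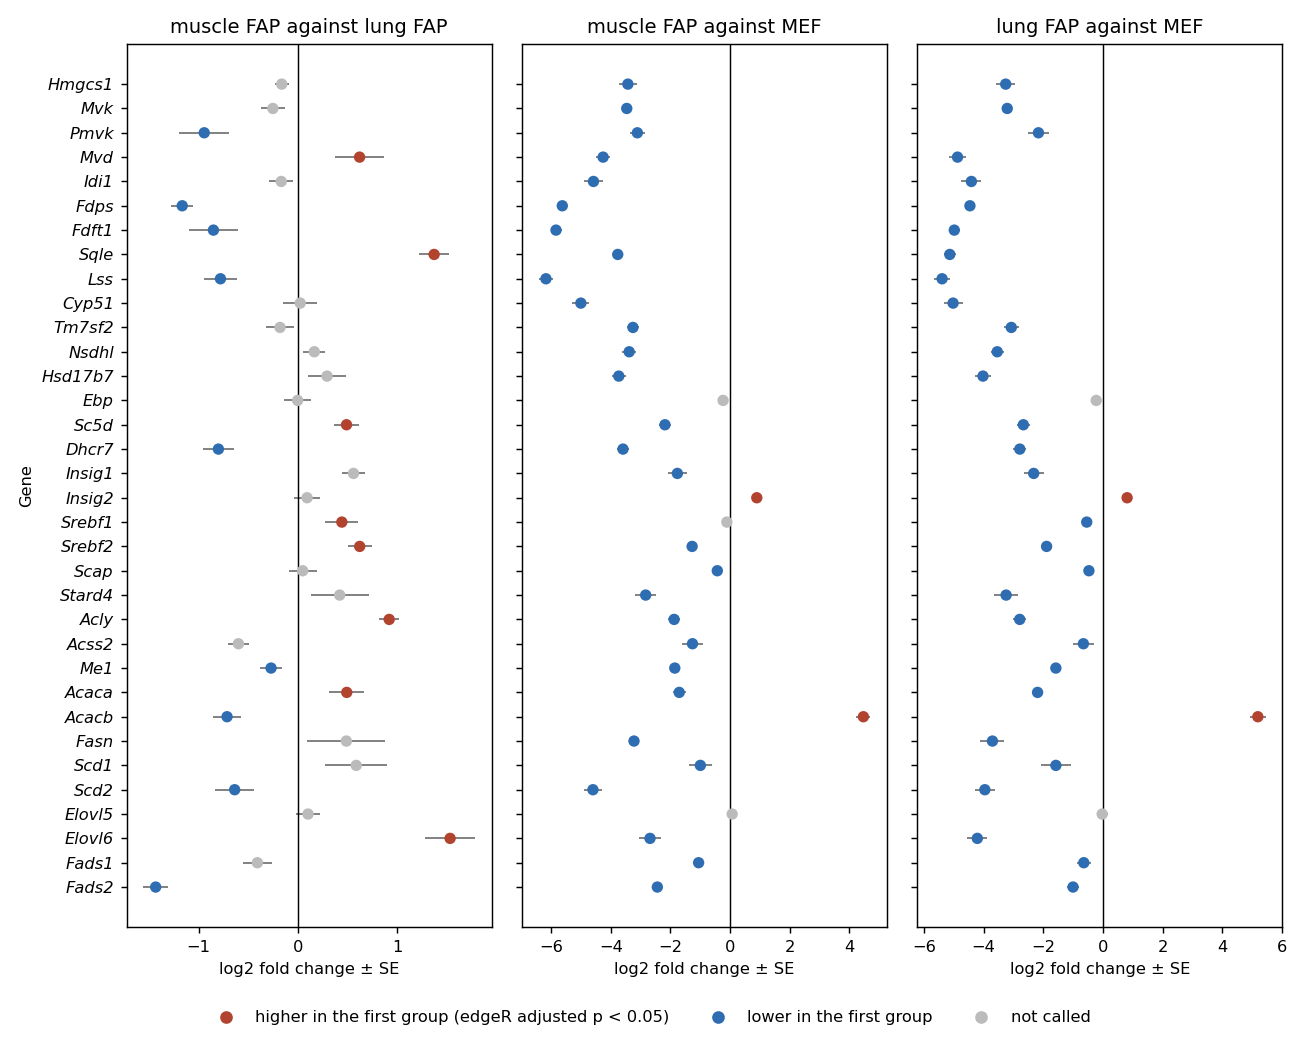
Log2 fold change ± SE (x axes, different ranges) of the 34 genes in the 3 comparisons, coloured by the edgeR call. Against MEFs 29 and 30 genes lie to the left of 0 as called, whereas muscle FAPs against lung FAPs show 8 called to the right and 9 to the left.

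The 6 mevalonate enzymes turn acetyl units into farnesyl diphosphate. All 6 were lower in muscle FAPs and all 6 lower in lung FAPs than in MEFs, where 37.3% and 36.6% of all tested genes were. Log2 fold changes were −5.63 to −3.11 and −4.88 to −2.17. Libraries did not overlap with those of MEFs for any of the 6. How often that held over all tested genes was not counted, so it may not be particular to these genes. Fdps joins the isoprenoid units to farnesyl diphosphate, the branch point towards sterols, ubiquinone and prenylated proteins. It stood at 9.32, 9.11, 7.77 and 8.83 CPM in the muscle FAP libraries, 16.01, 23.9, 18.1, 20.7 and 19.5 in the lung FAP libraries and 443, 399, 352 and 540.1 in the MEF libraries. Every lung FAP was above every muscle FAP, and every MEF was far above both. The difference was a log2 fold change of −1.17 with SE 0.11, edgeR adjusted p = 8.68e-06 for muscle FAPs against lung FAPs, −5.63 with SE 0.14, edgeR adjusted p = 6.07e-13 for muscle FAPs against MEFs and −4.46 with SE 0.16, edgeR adjusted p = 1.08e-12 for lung FAPs against MEFs. Of the other enzymes, Hmgcs1, which makes HMG-CoA, had 54.9 ± 3.499, 61.5 ± 5.46 and 591 ± 245 CPM in the order muscle FAPs, lung FAPs, MEFs. Idi1, which isomerises isopentenyl diphosphate, had 21.6 ± 1.94, 24.3 ± 4.06 and 517 ± 215 CPM, and neither gene was called between both kinds of FAP. Mvk, the mevalonate kinase, had 12.2 ± 1.996, 14.6 ± 1.06 and 135 ± 12.9 CPM and was likewise not called between the FAPs (edgeR adjusted p = 0.0756; 0.00902 without muscle FAP 5). Pmvk and Mvd carry out the next 2 steps and ran in opposite directions between the FAPs. Pmvk had 5.85 ± 0.455, 11.3 ± 3.77 and 50.6 ± 17.3 CPM and was lower in muscle FAPs (log2 fold change of −0.94 with SE 0.25, edgeR adjusted p = 0.00925), with lung FAPs uneven at 8.77, 15.4, 13.5, 12.6 and 6.08 CPM and lung FAP 5 among the muscle values. Without lung FAP 2, 3 and 4 its value was −0.35 (edgeR adjusted p = 0.313). Mvd had 5.85 ± 1.10, 3.81 ± 1.14 and 112 ± 29.7 CPM and was higher in muscle FAPs (log2 fold change of 0.62 with SE 0.24, edgeR adjusted p = 0.0362). That call of Mvd was lost without muscle FAP 2, 3 or 5, lung FAP 1 or 5, or MEF 1 (edgeR adjusted p = 0.050008 to 0.111).

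Of the 10 enzymes from squalene synthesis to cholesterol, 9 were lower in muscle FAPs than in MEFs and 9 lower in lung FAPs, and Ebp was the exception both times. Over these and the mevalonate enzymes together, 15 of 16 were lower in each comparison, with medians of −3.66 and −3.79. Fdft1, squalene synthase, commits farnesyl diphosphate to sterols. It stood at 9.44, 5.97, 6.02 and 5.63 CPM in the muscle FAP libraries, 10.03, 16.8, 14.9, 8.54 and 10.8 in the lung FAP libraries and 386, 370.4, 352 and 441 in the MEF libraries. Muscle FAP 2 was the high muscle library and overlapped the lung range, and the other muscle FAPs lay below every lung FAP. The gene was lower in muscle than in lung FAPs (log2 fold change of −0.85 with SE 0.25, edgeR adjusted p = 0.00276) and lower than in MEFs in both (−5.84 with SE 0.18, edgeR adjusted p = 2.08e-11 for muscle, −4.99 with SE 0.19, edgeR adjusted p = 2.32e-11 for lung).

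Sqle, squalene epoxidase, is the first oxygen-requiring and a rate-limiting step. It stood at 25.7, 25.4, 27.3 and 23.5 CPM in the muscle FAP libraries, 8.48, 13.3, 11.1, 7.98 and 8.46 in the lung FAP libraries and 365, 319, 268 and 437 in the MEF libraries. All muscle FAPs were above all lung FAPs, the opposite order to Fdps, Fdft1 and Lss. The difference between the FAPs was a log2 fold change of 1.37 with SE 0.15, edgeR adjusted p = 7.26e-06, and against MEFs it was −3.77 with SE 0.16, edgeR adjusted p = 8.29e-11 for muscle and −5.14 with SE 0.20, edgeR adjusted p = 2.19e-12 for lung. Lss, lanosterol synthase, closes the squalene epoxide into the first sterol, and was the gene with the largest fall against MEFs in both comparisons. It stood at 3.20, 2.48, 3.08 and 3.26 CPM in the muscle FAP libraries, 5.59, 5.94, 5.54, 3.42 and 5.33 in the lung FAP libraries and 229, 186, 147 and 309 in the MEF libraries. Lung FAP 4 was the low lung library and still lay above every muscle FAP. The values were a log2 fold change of −0.78 with SE 0.17, edgeR adjusted p = 0.00728 between the FAPs (adjusted p = 0.0549 with limma-voom), −6.18 with SE 0.24, edgeR adjusted p = 1.5e-11 for muscle FAPs against MEFs and −5.40 with SE 0.27, edgeR adjusted p = 1.31e-11 for lung FAPs against MEFs.

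Cyp51, the lanosterol demethylase, was the most abundant sterol enzyme of MEFs in CPM. It stood at 26.2, 23.7, 27.6 and 27.2 CPM in the muscle FAP libraries, 30.0, 34.4, 25.0, 20.9 and 18.5 in the lung FAP libraries and 905, 666, 524 and 1268 in the MEF libraries. The FAP groups overlapped (log2 fold change 0.021, SE 0.17, edgeR adjusted p = 0.951), and every MEF was above every FAP (−5.01 with SE 0.28, edgeR adjusted p = 6.83e-10 for muscle, −5.03 with SE 0.32, edgeR adjusted p = 2.11e-10 for lung). Tm7sf2, Nsdhl and Hsd17b7 reduce and demethylate the ring and were not called between the FAPs. Their levels in muscle FAPs, lung FAPs and MEFs were 3.18 ± 0.205, 3.60 ± 0.779 and 30.4 ± 9.29 CPM for Tm7sf2, 11.7 ± 1.72, 10.4 ± 0.552 and 122 ± 35.3 CPM for Nsdhl and 21.4 ± 3.18, 17.5 ± 4.27 and 284 ± 82.2 CPM for Hsd17b7. The late enzymes differed among themselves. Ebp, the sterol isomerase, had 32.3 ± 1.41, 32.5 ± 7.20 and 38.1 ± 4.78 CPM and was not called in any of the 3 comparisons (log2 fold changes −0.0048, −0.24 and −0.23, edgeR adjusted p = 0.984, 0.159 and 0.144). With library size as the only scaling all 3 were called, at −0.41 in muscle against lung FAPs, −0.81 in muscle FAPs against MEFs and −0.41 in lung FAPs against MEFs (edgeR adjusted p = 0.0175, 8.79e-05 and 0.0124). With lung FAP 4 left out, it was lower than in MEFs in both kinds of FAP, at −0.25 and −0.39 (edgeR adjusted p = 0.0433 and 0.00387). Sc5d, the lathosterol desaturase, had 42.9 ± 4.97, 30.6 ± 4.45 and 195 ± 53.1 CPM and was higher in muscle than in lung FAPs (log2 fold change of 0.49 with SE 0.12, edgeR adjusted p = 0.0216), a call lost without muscle FAP 2 (0.0738) or lung FAP 1 (0.0511). Dhcr7, which makes cholesterol from 7-dehydrocholesterol, had 4.79 ± 0.642, 8.35 ± 1.56 and 57.9 ± 13.9 CPM and was lower in muscle than in lung FAPs without overlap (log2 fold change of −0.80 with SE 0.16, edgeR adjusted p = 0.0019).

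Against MEFs the regulators moved less, by median, than the enzymes. Of the 6 regulators, 4 were lower in muscle FAPs than in MEFs and 5 lower in lung FAPs, and 1 was higher in each, Insig2. Their medians were −0.85 and −1.22, with −3.66 and −3.79 for mevalonate and sterol enzymes and −1.78 and −1.58 for fatty acid enzymes. Between the FAPs this did not hold. There the regulators' median was 0.43, with −0.17 for mevalonate and sterol enzymes and −0.086 for fatty acid enzymes. Srebf2, the precursor of SREBP-2, stood at 150.1, 149, 135 and 137 CPM in the muscle FAP libraries, 107, 76.7, 102, 75.1 and 104 in the lung FAP libraries and 317, 347, 348 and 368 in the MEF libraries. The groups were fully separated, lowest in lung FAPs and highest in MEFs. It was higher in muscle than in lung FAPs (log2 fold change of 0.62 with SE 0.12, edgeR adjusted p = 0.000451), and lower than in MEFs (−1.27 with SE 0.059, edgeR adjusted p = 2.1e-07 for muscle, −1.89 with SE 0.12, edgeR adjusted p = 1.14e-09 for lung). Srebf1, the precursor of SREBP-1, stood at 93.9, 89.1, 89.2 and 94.7 CPM in the muscle FAP libraries, 79.3, 54.7, 83.2, 46.4 and 74.4 in the lung FAP libraries and 89.8, 97.6, 104 and 104 in the MEF libraries. Muscle FAPs lay within or just below the MEF range and were all above the lung FAPs, of which lung FAP 2 and 4 were low. It was higher in muscle than in lung FAPs (log2 fold change of 0.44 with SE 0.17, edgeR adjusted p = 0.0205), lower in lung FAPs than in MEFs (−0.55 with SE 0.17, edgeR adjusted p = 0.00296) and not called between muscle FAPs and MEFs (−0.11 with SE 0.055, edgeR adjusted p = 0.534). Under library size only, the log2 fold change between the FAPs was 0.22 for Srebf2 and 0.043 for Srebf1, and neither was called. In muscle FAPs against MEFs that scaling gave Srebf1 a called log2 fold change of −0.68 (edgeR adjusted p = 0.000364).

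Insig1 and Insig2 both hold SCAP back, and Insig1 is itself a target of SREBP. Insig1 stood at 109, 99.4, 98.9 and 89.4 CPM in the muscle FAP libraries, 54.9, 77.1, 70.7, 75.8 and 58.1 in the lung FAP libraries and 379.6, 255, 193 and 523 in the MEF libraries. All muscle FAPs were above all lung FAPs, and all MEFs above both. Between the FAPs the gene just missed the call (log2 fold change of 0.56 with SE 0.12, edgeR adjusted p = 0.0512), and without lung FAP 2, MEF 3 or MEF 4 it was called (edgeR adjusted p = 0.0431, 0.018 and 0.0169), as it was by the DESeq2 Wald test and by limma-voom. Against MEFs it was lower in muscle FAPs (−1.77 with SE 0.32, edgeR adjusted p = 1.05e-05) and in lung FAPs (−2.33 with SE 0.33, edgeR adjusted p = 2.86e-07). Insig2 stood at 77.6, 57.5, 75.1 and 67.4 CPM in the muscle FAP libraries, 67.7, 58.9, 58.4, 79.1 and 61.9 in the lung FAP libraries and 38.9, 35.7, 35.7 and 38.8 in the MEF libraries. Both kinds of FAP overlapped, and every FAP was above every MEF. It was higher than in MEFs in muscle FAPs (0.90 with SE 0.10, edgeR adjusted p = 5.88e-06) and in lung FAPs (0.81 with SE 0.089, edgeR adjusted p = 1.09e-05), and was not called between the FAPs (0.090 with SE 0.13, edgeR adjusted p = 0.531), save that with library size as the only scaling it was lower in muscle FAPs at −0.31. Scap, the escort of SREBP, had 57.5 ± 3.10, 55.7 ± 10.9 and 77.4 ± 11.3 CPM and was lower in both kinds of FAP than in MEFs by small amounts (−0.43 and −0.47, edgeR adjusted p = 0.0161 and 0.00604). Stard4, a carrier of cholesterol between membranes, had 9.55 ± 1.82, 7.15 ± 2.79 and 68.0 ± 29.2 CPM, was lower than in MEFs in both (−2.83 and −3.25) and was uneven in lung FAPs, with a 2.91-fold range.

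**Figure D3:**
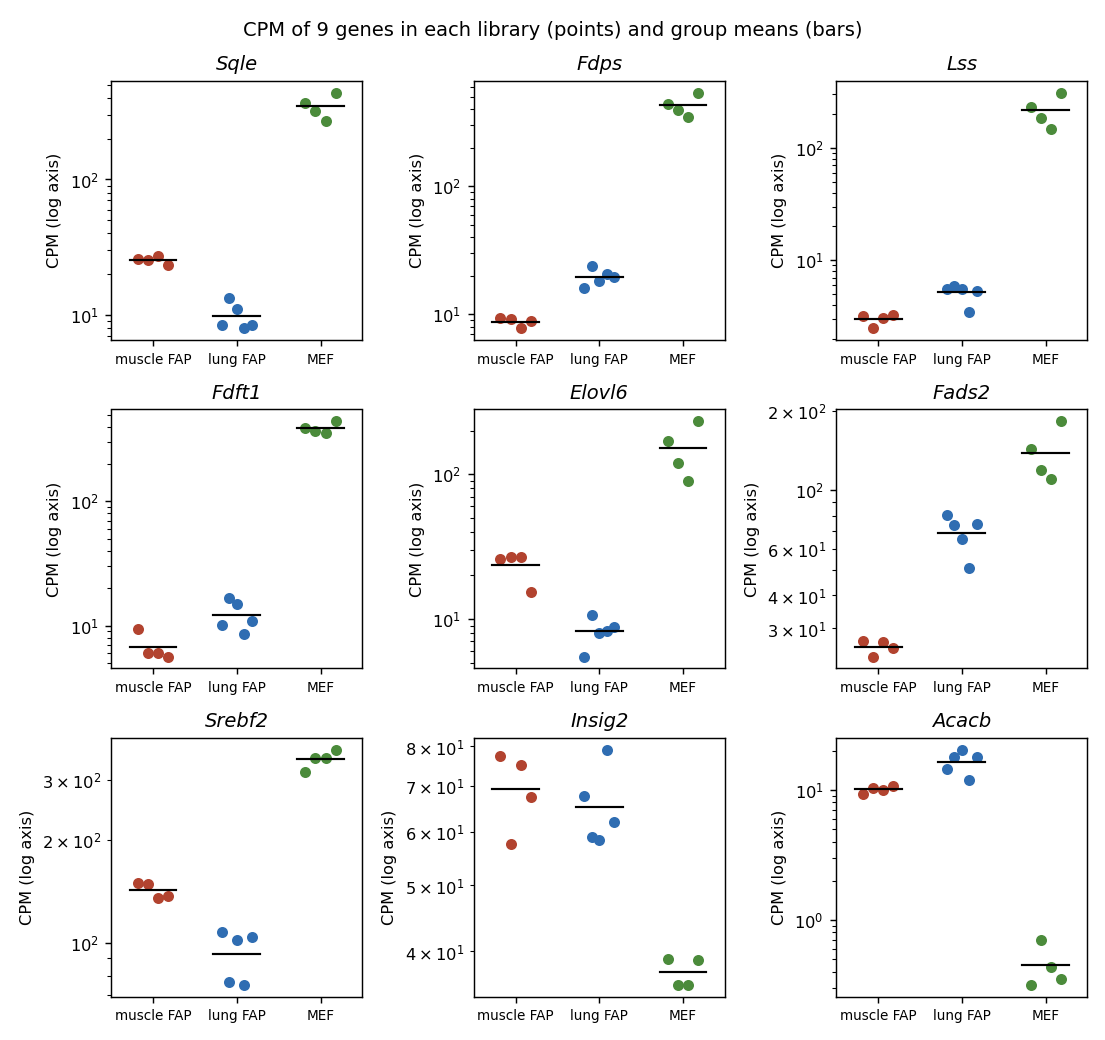
CPM on log axes of 9 genes in each library (points) with group means (bars), muscle FAPs in red, lung FAPs in blue and MEFs in green. Sqle and Elovl6 are higher in muscle than in lung FAPs, while Fdps, Lss, Fads2 and Acacb are lower, in each case without overlap. Insig2 and Acacb are the panels in which MEFs are lowest.

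The 3 genes that supply acetyl-CoA and NADPH were all lower in both kinds of FAP than in MEFs. Acly, which cuts citrate into cytosolic acetyl-CoA, had 244 ± 24.1, 129 ± 14.3 and 896 ± 246 CPM, with every muscle FAP above every lung FAP (log2 fold change of 0.92 with SE 0.10, edgeR adjusted p = 0.000229) and every MEF above both (−1.88 and −2.79). Acss2, which makes acetyl-CoA from acetate, had 12.2 ± 1.19, 18.5 ± 2.32 and 29.3 ± 13.4 CPM. It fell against MEFs by the least of the 3, 1.26 in muscle FAPs and 0.66 in lung FAPs on the log2 scale, and without MEF 4 the lung value was −0.36 (edgeR adjusted p = 0.112). Between the FAPs it was not called (−0.60 with SE 0.11, edgeR adjusted p = 0.0505), though without lung FAP 4, MEF 3 or MEF 4 it was (edgeR adjusted p = 0.0428, 0.00843 and 0.0139). Me1, the cytosolic malic enzyme that makes NADPH, had 43.6 ± 3.25, 52.7 ± 7.93 and 158 ± 3.39 CPM. Its small difference between the FAPs (log2 fold change of −0.27 with SE 0.11, edgeR adjusted p = 0.0444) lost its call without any of 6 libraries in turn, muscle FAP 2, 3 or 5 or lung FAP 1, 3 or 5, with edgeR adjusted p = 0.0576 to 0.127.

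Acaca and Acacb both carboxylate acetyl-CoA to malonyl-CoA. ACC1, from Acaca, feeds synthesis in the cytosol, and ACC2, from Acacb, sits at mitochondria, where its product restrains fatty acid oxidation. Acaca stood at 50.3, 56.7, 50.8 and 35.9 CPM in the muscle FAP libraries, 34.1, 33.1, 40.0, 26.5 and 38.8 in the lung FAP libraries and 159, 138, 127 and 208 in the MEF libraries. Muscle FAP 5 overlapped the lung range and the other muscle FAPs lay above it. The gene was higher in muscle than in lung FAPs (log2 fold change of 0.49 with SE 0.18, edgeR adjusted p = 0.0228), a call lost without muscle FAP 2, 3 or 4 (edgeR adjusted p = 0.0538, 0.0854 and 0.0599), and lower than in MEFs (−1.71 with SE 0.21, edgeR adjusted p = 4.16e-07 for muscle, −2.20 with SE 0.19, edgeR adjusted p = 1.14e-08 for lung). Acacb went the other way, at 9.26, 10.3, 9.96 and 10.7 CPM in the muscle FAP libraries, 14.5, 17.9, 20.4, 11.9 and 17.9 in the lung FAP libraries and 0.315, 0.701, 0.432 and 0.348 in the MEF libraries. Every lung FAP was above every muscle FAP, and every MEF was under 1 CPM. It was lower in muscle than in lung FAPs (log2 fold change of −0.71 with SE 0.14, edgeR adjusted p = 0.00733) and higher than in MEFs in muscle FAPs (4.47 with SE 0.24, edgeR adjusted p = 3.72e-10) and lung FAPs (5.19 with SE 0.27, edgeR adjusted p = 6.99e-11). Adipocytes are also rich in Acacb. The adipocyte markers were 7 of 7 tested lower in muscle than in lung FAPs, and summed to 3.53 to 6.47 CPM in the muscle libraries, 17.0 to 51.9 in those of lung and 4.18 to 6.33 in those of MEFs. Their part in the result was not tested.

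Fasn, fatty acid synthase, had 122 ± 7.09, 87.2 ± 45.7 and 1140.1 ± 154 CPM and was lower than in MEFs in both kinds of FAP (−3.22 with SE 0.11, edgeR adjusted p = 2.01e-06 for muscle, −3.71 with SE 0.40, edgeR adjusted p = 2.18e-07 for lung). Lung FAPs were spread 4.83-fold, at 102, 57.5, 151, 31.3 and 94.2 CPM, while muscle FAPs held 114 to 129. The highest lung value was that of lung FAP 3, the library with alveolar and airway markers (sums of 3869 and 5829 CPM), and the part of those cells in the value was not tested. Between the FAPs Fasn was not called (0.49 with SE 0.39, edgeR adjusted p = 0.223), and without lung FAP 3 it was higher in muscle FAPs (0.78, edgeR adjusted p = 0.0312).

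Scd1 and Scd2 are the stearoyl-CoA desaturases that make monounsaturated fatty acids. Scd1 stood at 255, 279, 269 and 225 CPM in the muscle FAP libraries, 174, 87.6, 316, 122 and 157 in the lung FAP libraries and 569, 377, 249 and 857 in the MEF libraries. All 3 groups overlapped, and lung FAP 3 and MEF 4 were the highest libraries of their groups. Scd1 was lower than in MEFs in muscle FAPs (−0.997 with SE 0.39, edgeR adjusted p = 0.0328) and lung FAPs (−1.58 with SE 0.49, edgeR adjusted p = 0.00147). The muscle call was lost without muscle FAP 2, 4 or 5, MEF 1 or MEF 4, and without MEF 4 its value was −0.65 (edgeR adjusted p = 0.0547 to 0.131 over the 5). Between the FAPs it was not called (0.58 with SE 0.31, edgeR adjusted p = 0.204), and it was higher in muscle FAPs without lung FAP 3 (0.92, edgeR adjusted p = 0.0266). Scd2 stood at 106, 78.8, 75.2 and 76.3 CPM in the muscle FAP libraries, 129, 108, 156, 93.7 and 167 in the lung FAP libraries and 2223, 1624, 1227 and 3083 in the MEF libraries. MEFs were above all FAPs by a wide margin (−4.60 with SE 0.31, edgeR adjusted p = 1.97e-09 for muscle, −3.96 with SE 0.33, edgeR adjusted p = 2.59e-09 for lung), and muscle FAP 2 lay above lung FAP 4. Scd2 was lower in muscle than in lung FAPs (−0.64 with SE 0.20, edgeR adjusted p = 0.041), a call lost without any of 6 libraries in turn, muscle FAP 3, 4 or 5 or lung FAP 1, 3 or 5 (edgeR adjusted p = 0.0587 to 0.1).

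Elovl6 lengthens saturated and monounsaturated acids of the synthesis route, and Elovl5 lengthens polyunsaturated acids. Elovl6 stood at 26.1, 27.0, 26.6 and 15.3 CPM in the muscle FAP libraries, 5.50, 10.6, 7.99, 8.24 and 8.79 in the lung FAP libraries and 171, 119, 89.6 and 232 in the MEF libraries. Muscle FAP 5 was low among muscle FAPs and still above every lung FAP. The gene had the largest difference between the FAPs among the 34, a log2 fold change of 1.53 with SE 0.25, edgeR adjusted p = 0.000335, and was lower than in MEFs (−2.69 with SE 0.36, edgeR adjusted p = 1.23e-06 for muscle, −4.22 with SE 0.34, edgeR adjusted p = 8.61e-09 for lung). Elovl5 stood at 79.9, 70.5, 68.5 and 60.5 CPM in the muscle FAP libraries, 67.2, 79.7, 57.5, 66.2 and 55.4 in the lung FAP libraries and 67.9, 61.7, 51.003 and 85.6 in the MEF libraries. All groups overlapped and no comparison was called (0.10, 0.070 and −0.030, edgeR adjusted p = 0.598, 0.691 and 0.857), save that with library size as the only scaling it was lower in muscle FAPs than in MEFs at −0.51 (edgeR adjusted p = 0.0127).

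Fads1 and Fads2, the desaturases of the front end of the chain, are neighbouring genes on chromosome 19 and act in turn on polyunsaturated acids. Fads1 stood at 98.6, 91.9, 89.9 and 97.5 CPM in the muscle FAP libraries, 151, 124, 120.3, 87.5 and 145 in the lung FAP libraries and 206, 174, 145 and 260.3 in the MEF libraries. Lung FAPs reached into the MEF range, and lung FAP 4 lay below every muscle FAP while the other lung FAPs lay above. Fads1 was lower than in MEFs in muscle FAPs (−1.06 with SE 0.18, edgeR adjusted p = 6.69e-05) and lung FAPs (−0.65 with SE 0.23, edgeR adjusted p = 0.00241). Between the FAPs it was not called (−0.41 with SE 0.14, edgeR adjusted p = 0.0555), though without lung FAP 4, MEF 3 or MEF 4 it was (edgeR adjusted p = 0.0111, 0.0317 and 0.0288). Fads2 stood at 26.8, 23.5, 26.6 and 25.3 CPM in the muscle FAP libraries, 80.3, 73.8, 65.3, 50.6 and 74.8 in the lung FAP libraries and 143, 119, 110.2 and 183 in the MEF libraries. The groups were fully separated, in the order muscle FAPs, lung FAPs, MEFs. Its values were a log2 fold change of −1.43 with SE 0.13, edgeR adjusted p = 3.61e-06 between the FAPs, −2.44 with SE 0.17, edgeR adjusted p = 3.83e-09 for muscle FAPs against MEFs and −1.01 with SE 0.20, edgeR adjusted p = 1.93e-05 for lung FAPs against MEFs.

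The balance within pairs of genes of like activity was compared between the groups. The log2 ratio of the 2 counts was taken within each library, which no scaling between libraries can alter, and groups were compared by an exact two-sided permutation test over libraries, adjusted over 18 tests. Of the 18, 17 had an adjusted p under 0.05. Since 48.2%, 73.5% and 74.4% of all single genes were called in the 3 comparisons, and ratios of other gene pairs were not tested, this count is not particular to these pairs. The smallest p possible was 0.00794 for 4 against 5 libraries and 0.0286 for 4 against 4. The exception was Srebf1 to Srebf2 between the FAPs, at −0.64 ± 0.090 in muscle FAPs and −0.48 ± 0.15 in lung FAPs (exact permutation adjusted p = 0.0952; 0.0286 unadjusted without lung FAP 4). In MEFs that ratio was −1.80 ± 0.040, so Srebf2 exceeded Srebf1 by more there.

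In counts, which are not scaled by gene length, Scd1 exceeded Scd2 in muscle FAPs, at a log2 ratio of 1.62 ± 0.27. It was nearly even with Scd2 in lung FAPs at 0.29 ± 0.51, and below it in MEFs at −2.05 ± 0.19. The differences were 1.33, 3.68 and 2.34 (exact permutation adjusted p = 0.0286, 0.0321 and 0.0159). Per kilobase of merged exon, lung FAPs had 35.0 CPM of Scd1 and 23.9 of Scd2. Elovl5 exceeded Elovl6 in both kinds of FAP, at 1.59 ± 0.29 and 3.001 ± 0.36, and Elovl6 exceeded Elovl5 in MEFs, at −1.13 ± 0.30 (exact permutation adjusted p = 0.0159 between the FAPs). Acaca to Acacb was 2.25 ± 0.34 for muscle FAPs, 1.07 ± 0.14 for lung FAPs and 8.43 ± 0.71 for MEFs, the widest shift of the 6 pairs. Insig1 to Insig2 was 0.52 ± 0.18, 0.042 ± 0.28 and 3.07 ± 0.57, with a difference between the FAPs of 0.48 (exact permutation adjusted p = 0.042). Fads1 to Fads2 was tight within groups, at 1.89 ± 0.10, 0.86 ± 0.084 and 0.50 ± 0.066, and its difference between lung FAPs and MEFs, 0.36, was the smallest that had an adjusted p under 0.05 (0.0159, exact permutation).

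**Figure D4:**
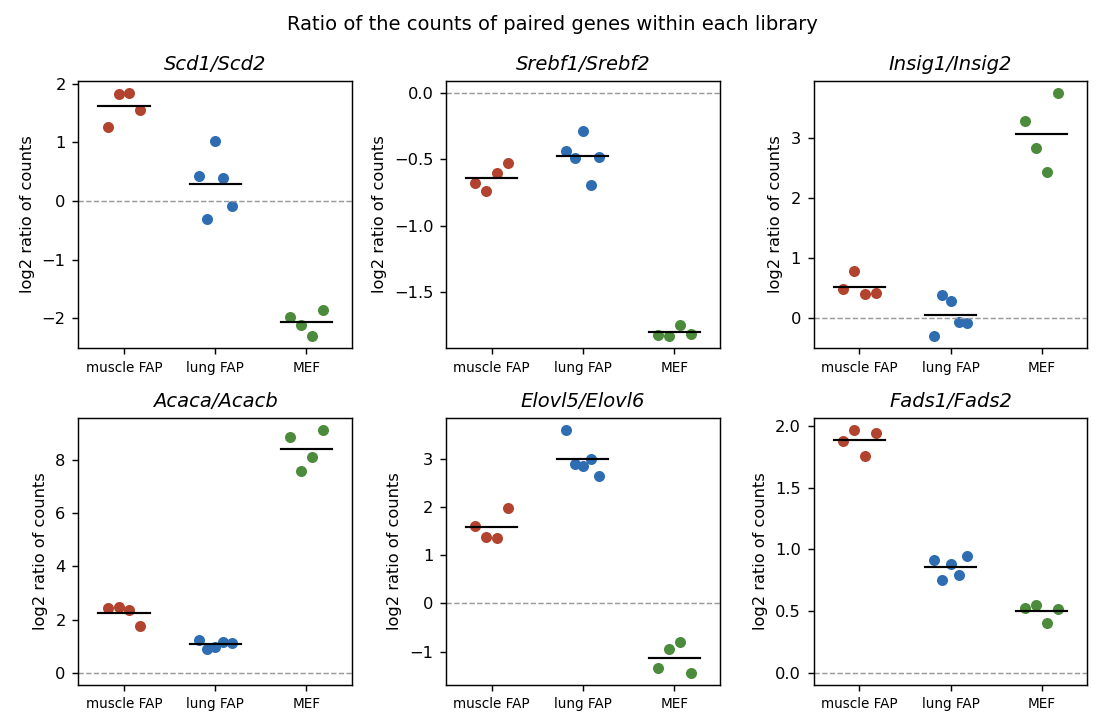
Log2 ratio of the counts of 2 genes of like activity within each library (points) with group means (bars), and a dashed line where both counts are equal. Scd1/Scd2 falls from muscle FAPs over lung FAPs to below 0 in MEFs, Elovl5/Elovl6 is below 0 in MEFs alone, and Acaca/Acacb is far higher in MEFs than in either kind of FAP.

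The MEF libraries differed among themselves in these genes. The ratio of the highest to the lowest library had a median over the 34 genes of 1.24 among muscle FAPs, 1.62 among lung FAPs and 1.85 among MEFs. Over the tested genes counted in every library of the group it was 1.36, 1.60 and 1.36. The 34 were thus more uneven in MEFs and less uneven in muscle FAPs than the median of those genes, which were not matched for level. MEF 4 was the highest MEF for 31 of 34 genes (91.2%, and 27.3% of all tested genes) and MEF 3 the lowest for 26 (76.5%, and 30.8% of all). For 26 of 34 the levels fell from MEF 4 over MEF 1 and MEF 2 to MEF 3, which 12.4% of all tested genes did, and 15 of 16 mevalonate and sterol enzymes were among them. This order was noticed in the values and then counted. The widest ranges were 3.43-fold for Scd1, 3.09 for Acss2, 2.80 for Stard4 and 2.71 for Insig1 and for Idi1. Srebf1 and Srebf2 themselves ranged 1.16-fold each, Insig2 1.09-fold and Me1 1.05-fold. Among the genes that did not follow the order, Scap was highest in MEF 3 and Acacb in MEF 2. Of the other lists, 7 of 10 genes of sterol and isoprenoid synthesis kept that order, 2 of 11 of SREBP processing, 3 of 15 of uptake, 3 of 13 of efflux, 6 of 23 of other fatty acid steps and 1 of 12 of fatty acid oxidation. The macrophage markers summed to 471, 322, 125 and 359 CPM in MEF 1 to 4 and the cell cycle markers to 231, 283, 258 and 212, and their part in the result was not tested.

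**Figure D5:**
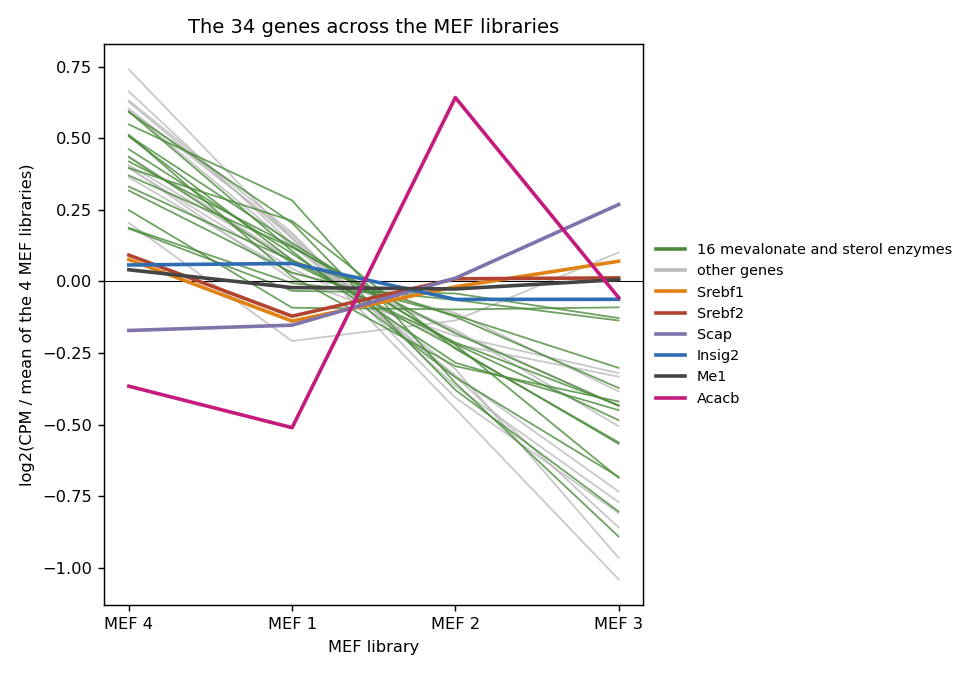
Levels of the 34 genes in the 4 MEF libraries as log2 of CPM over the gene's mean in MEFs, 1 line per gene, with the libraries placed in the order in which most genes fall. Most sterol enzymes (green) and other genes (grey) fall from MEF 4 to MEF 3, while Srebf1, Srebf2, Insig2 and Me1 stay nearly level and Scap and Acacb run differently.

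In the FAP groups no library stood out to the same degree. Muscle FAP 2 was the highest muscle library for 15 of 34 genes. Lung FAP 2 was the highest lung library for 15, of which 11 were mevalonate or sterol enzymes, and lung FAP 4 the lowest for 17. The like shares over all tested genes were not counted for the FAP libraries, so these counts may not be particular to the 34. Ranges over 1.5-fold were found for 5 genes among muscle FAPs, 21 among lung FAPs and 25 among MEFs, and ranges over 2-fold for 0, 5 and 12. Without lung FAP 2 and 3, 8 of the 34 genes were higher in muscle than in lung FAPs and 7 lower, and without lung FAP 2, 3 and 4 these were 6 and 9, in fits added after the values were seen. Of all tested genes, 44.9% and 43.6% were called between the FAPs in these fits, in that order. Pmvk and Scd2 lost their call in the former, at −0.65 and −0.64. In the latter Pmvk was at −0.35, Sc5d at 0.52, Srebf1 at 0.25 and Acaca at 0.41, none of them called (edgeR adjusted p = 0.313, 0.0654, 0.0612 and 0.127), while Insig1 and Fads1 gained a call (0.80 and −0.65). Heat shock and dissociation genes summed to 22763 to 28345 CPM in the muscle libraries, 3467 to 10685 in those of lung and 459 to 641 in those of MEFs, and cell cycle genes to 28.5 to 32.7, 19.1 to 28.9 and 212 to 283. These sums move with the groups compared, and their part in the differences was not tested.

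Per kilobase of merged exon (GENCODE M21), the leading genes also differed between the groups. In muscle FAPs the highest levels were those of Scd1 at 52.5 CPM per kb, Acly at 46.2 and Insig1 at 32.0. In lung FAPs they were those of Scd1 at 35.0, Fads1 at 26.1 and Acly at 24.5 CPM per kb. In MEFs Scd2 led at 373 CPM per kb, followed by Cyp51 at 190.4 and Acly at 169.7. Sterol enzymes were thus among the leading genes of MEFs and not of either FAP. Lss, with 0.279 and 0.479 CPM per kb in muscle and lung FAPs, was the lowest enzyme of sterol synthesis there by this measure. Its merged exons span 10787 bases. In CPM without regard to length, lung FAPs had less of Tm7sf2 (3.60) and Mvd (3.81) than of Lss (5.16).

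Other genes of the same pathways were counted from lists set by function. The 10 tested genes of other sterol and isoprenoid steps were 1 higher, 0 lower and 9 not called in muscle FAPs against lung FAPs, 2, 6 and 2 in muscle FAPs against MEFs, and 2, 6 and 2 in lung FAPs against MEFs. Sc4mol, the sterol methyl oxidase, had 16.7, 21.1 and 527 CPM in muscle FAPs, lung FAPs and MEFs (−4.98 and −4.64 against MEFs). The 11 genes of SREBP processing and turnover were 2 higher, 3 lower and 6 not called in muscle FAPs against lung FAPs, 3, 4 and 4 in muscle FAPs against MEFs, and 3, 6 and 2 in lung FAPs against MEFs. Mbtps1, the site-1 protease that cuts SREBP, had 285, 247 and 109.8 CPM and was higher in both kinds of FAP than in MEFs (1.38 and 1.17), unlike the enzymes. Erlin1 and Erlin2, lipid raft proteins of the endoplasmic reticulum, were lower in muscle than in lung FAPs (−0.50 and −0.47). Fbxw7, part of a ubiquitin ligase that marks nuclear SREBP for degradation, had 12.4, 13.3 and 25.5 CPM (−1.05 in muscle FAPs against MEFs).

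Genes of sterol uptake, transport and efflux did not follow the synthesis genes. The 15 uptake and transport genes were 6 higher, 5 lower and 4 not called in muscle FAPs against lung FAPs, 4, 8 and 3 in muscle FAPs against MEFs, and 3, 8 and 4 in lung FAPs against MEFs. Scarb1, a lipoprotein receptor, had 4.41, 15.4 and 66.5 CPM (−1.81 between the FAPs), Stard5, a sterol-binding protein, 33.5, 12.6 and 11.8 CPM (1.40), and Vldlr, a receptor of triglyceride-rich particles, 253, 194 and 21.8 CPM (3.54 and 3.16 against MEFs). The 13 genes of efflux, esterification and LXR response were 3 higher, 7 lower and 3 not called in muscle FAPs against lung FAPs, 7, 4 and 2 in muscle FAPs against MEFs, and 9, 3 and 1 in lung FAPs against MEFs. The list thus went both ways against MEFs, with 4 genes lower in muscle FAPs and 3 lower in lung FAPs. Among the genes called higher than in MEFs were several that turn over or export sterol. Cyp27a1, sterol 27-hydroxylase, had 70.6, 113 and 0.740 CPM (6.58 and 7.25 against MEFs), and Abca1, the cholesterol exporter, 268, 169.6 and 11.9 CPM (4.50 in muscle FAPs against MEFs). Cyp7b1, oxysterol 7-hydroxylase, had 2.44, 13.7 and 0.340 CPM (−2.48 between the FAPs, 5.32 in lung FAPs against MEFs).

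The 23 tested genes of other fatty acid synthesis, elongation and activation were 5 higher, 8 lower and 10 not called in muscle FAPs against lung FAPs, 7, 13 and 3 in muscle FAPs against MEFs, and 6, 14 and 3 in lung FAPs against MEFs. Slc25a1, the citrate carrier that feeds Acly, had 22.2, 31.4 and 168 CPM (−2.92 in muscle FAPs against MEFs) and Elovl4, an elongase of very long chains, 2.17, 0.911 and 24.8 CPM (−3.51 and −4.76). Fads3, the neighbour of Fads2, had 26.9, 80.5 and 192 CPM and was lower in muscle than in lung FAPs (−1.58), as Fads2 was. Fads6, another member of that family, had 2.03, 6.52 and 0.181 CPM (−1.68 between the FAPs, 5.14 in lung FAPs against MEFs). The 12 tested genes of fatty acid oxidation were 1 higher, 6 lower and 5 not called in muscle FAPs against lung FAPs, 4, 3 and 5 in muscle FAPs against MEFs, and 8, 2 and 2 in lung FAPs against MEFs. Pdk4, which turns pyruvate away from acetyl-CoA, had 89.6, 68.1 and 12.8 CPM (2.80 and 2.41 against MEFs), and Cpt2, of the carnitine shuttle, 12.5, 24.6 and 18.5 CPM (−0.98 between the FAPs). Hadha, of the mitochondrial trifunctional protein, had 70.3, 95.4 and 116 CPM (−0.72 in muscle FAPs against MEFs). Each difference given for these other genes was called by edgeR, with adjusted p from 3.28e-13 to 0.00284. The shares over all tested genes given above (23.2% and 25% between the FAPs, 36.1% and 37.3% for muscle FAPs and 37.8% and 36.6% for lung FAPs against MEFs) apply to these lists as well, and several of their counts lie near them.

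Several members share sequence with other genes, and how reads fitting more than 1 place were counted is not given in the sources used here. Of the 50-base words of each gene's GENCODE transcripts, over 20% also occur in transcripts of another gene for 5 members, over 5% for 9 and none for 12. The 5 are Acaca at 30.4% (mostly Gm5182), Me1 at 28.3% (Gm7049), Fdft1 at 26.5% (Ctsb), Fdps at 26.2% (Gm43738) and Idi1 at 25.3% (Gm13502). Their levels are uncertain by an amount that was not estimated. Scd1 and Scd2 share little, at 4.56% and 3.97%, and Sqle, Lss and Fads2 0.0358%, 1.86% and 0.152%.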

How the data were processed

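Per the labels' protocols, total RNA (Trizol, then RNeasy columns) of the 13 samples went into Illumina libraries. The deposited table holds the authors' read count per gene and library, as whole numbers. The submitters' processing notes name mm10, Bowtie2 2.1.0.0, HTSeq and edgeR, with no role for each. Annotation and strand setting are unknown from the sources used here, so reads of overlapping genes may not be told apart.

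From these, edgeR 4.0.16 (R 4.3.3) with TMM scaling gave a robust quasi-likelihood fit of all 13 libraries with group as the factor, after filterByExpr (15412 genes kept). Calls are at a Benjamini-Hochberg adjusted p under 0.05 over all genes tested, with no minimum fold. SEs come from log2 CPM with a prior count of 2. Ratios of paired genes used counts plus 1. Simulated counts with known fold changes served to test the fit. Replicates of a group differed by more than sampling noise, so none was counted as a duplicate.

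The 34 genes, the lists of other genes and markers, and the rules were chosen with earlier results of these data known. Values in every library are given for the 4 called genes with the largest change in each comparison (5 CPM or more in the group with more) and for genes of pairs whose ratio passed, and other lists may name, per comparison, the 2 called members of at least 5 CPM with the largest change. Not all genes this rule takes are reported here. Alternatives were DESeq2 1.42.0 size factors and Wald test, upper-quartile scaling, library size only, no filter, at least 5 CPM in 4 libraries, limma-voom (limma 3.58.1), glmTreat against a 2-fold change, the compared groups alone, a replicate block, prior counts of 0.5 and 5 for ratios, and each library left out. Leaving out lung FAP 2 and 3, or 2, 3 and 4, was chosen after seeing the data. Exon lengths are from GENCODE M21 and promoters from RefSeq (GRCm38.p6).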

Additional observations from a re-analysis of the deposited data

Results flagged for a closer look

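Dixon's test at 95% was applied to the libraries of each gene and group, 102 series in all, and chance marks about 1 in 20 of them. It marked 5 of the 102 series, which is near that share, each for a library that lay far from the others of its group. Muscle FAP 2 was high for Fdft1, at 9.44 CPM against 5.63 to 6.02 in the other muscle FAPs, and for Scd2, at 106 CPM against 75.2 to 78.8. Muscle FAP 5 was low for Elovl6, at 15.3 CPM against 26.1 to 27.0. Lung FAP 4 was low for Lss, at 3.42 CPM against 5.33 to 5.94. MEF 4 was high for Ebp, at 45.2 CPM against 35.6 to 35.8, and was also the highest MEF for 31 of the 34 genes.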

How the results depend on the processing

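Over all alternatives, 2326 of 2482 values of single genes kept their direction and side of the threshold. Another 80 lost the call, 42 gained it, 31 changed sign while not called and 3 reversed. The reversed values came with library size as the only scaling, which moved the median of all genes by −0.41, −0.58 and −0.17 in muscle FAPs against lung FAPs, muscle FAPs against MEFs and lung FAPs against MEFs. They were Insig2 at −0.31 and Scap at −0.35 between the FAPs (edgeR adjusted p = 0.0283 and 0.0311) and Elovl5 at −0.51 in muscle FAPs against MEFs (edgeR adjusted p = 0.0127). Between the FAPs that scaling gave 3 higher and 17 lower genes, with 59.6% of all tested genes called in either direction. Against a 2-fold change, glmTreat gave 2 changed genes between the FAPs, 1 higher and 1 lower. Against MEFs it gave 1 higher and 25 lower genes in muscle FAPs, and 1 higher and 24 lower in lung FAPs. Of all genes it called 1934, 5892 and 5944 in the 3 comparisons.

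With each library left out in turn, 13 to 20 genes changed between the FAPs (5 to 10 higher, 7 to 11 lower), the lowest count of higher genes coming without muscle FAP 2. Against MEFs 30 to 32 changed in muscle FAPs (2 higher, 28 to 30 lower) and 31 to 33 in lung FAPs (2 higher, 29 to 31 lower), and 17 to 18 of the 18 ratios passed. Of all tested genes, 40.5 to 48.2% were called between the FAPs in these fits. Against MEFs these shares were 68.4 to 75.1% for muscle FAPs and 70.1 to 74.5% for lung FAPs. All called genes but Scd1 in muscle FAPs and all but Acss2 in lung FAPs kept their call against MEFs in every alternative other than glmTreat. Same-numbered libraries did not deviate together (correlations 0.016 to 0.062, −0.023 to 0.060 and −0.050 to 0.033, with 1 of 4, 2 of 3 and 1 of 4 best with their own number). With the replicate block, 13 genes changed between the FAPs (6 higher, 7 lower), 30 in muscle FAPs against MEFs (2 higher, 28 lower) and 32 in lung FAPs against MEFs (2 higher, 30 lower). Of all tested genes, 44.2%, 70.2% and 72.2% were called with the block, in the same order.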
